A study of Mus musculus with 12 samples.

Results

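The E2F family of transcription factors was followed in sorted mouse CD8 T cells after checkpoint blockade. Its members were chosen by gene name, E2f1 to E2f8, and all 8 were found among the 48709 genes listed in each of 3 deposited comparisons; all 8 belong to the 17833 genes that the authors tested. The cells came from wild type C57BL/6 mice, labelled as postnatal day 91, that carried the TRAMP-C2 prostate tumour line. From their draining lymph nodes, taken at day 28, viable CD45+CD3+CD8+ lymphocytes were sorted that were positive for the tumour antigen Spas-1 and negative for Spas-2. The 4 arms received anti-CTLA-4, anti-PD-1 DANA (an antibody whose Fc part carries the DANA mutation), the combination of these antibodies (Combo), or an isotype control antibody (Isotype), on days 3, 6 and 9 by the sample labels and on days 3, 6 and 8 by the series text. Each arm is 1 pool of cells from 5 mice that was split into 3 libraries, 12 in all. A p-value here therefore measures technical spread between divisions of a pool, and an effect of treatment cannot be told apart from a difference between pools.

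E2F proteins read the state of the cell cycle. When cyclin-dependent kinases phosphorylate the retinoblastoma protein and its relatives, the pocket proteins, E2F dimers are released and the genes of DNA replication are transcribed. E2F1, E2F2 and E2F3 are known mainly as activators, E2F4 and E2F5 mainly as partners of pocket proteins in resting cells, E2F6 as a repressor that works with Polycomb proteins, and E2F7 and E2F8 as atypical repressors that bind DNA without a DP partner. In mice, loss of E2f2 is known to make T cells divide more readily, and E2F1 is known to promote the death of activated or developing T cells.

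The family was proposed with its fold changes in these tables already known, among them the fall of E2f2, so the values below describe the members and their adjusted p-values support nothing further. All fold changes are log2 values of treatment over isotype in the authors' deposited table, ± the standard error (SE) implied by the authors' p-value, and a call is an adjusted p (the authors' false discovery rate) under 0.05. After anti-CTLA-4 1 of 8 members was called, E2f2, which was lower, where 1.49% of all tested genes were called lower and 2.74% higher. After anti-PD-1 DANA the 1 call was again E2f2, lower, where 1.32% of all tested genes were called lower and 2.43% higher. In the combination E2f2 was not called and the 1 call was E2f5, higher, where 3.94% of all tested genes were called higher and 3.59% lower. The 3 comparisons share the isotype libraries. Scaling to library size instead of the authors' scaling would raise every fold change, by 0.94 under anti-CTLA-4, by 0.82 under anti-PD-1 DANA and by 0.11 under Combo, and both called members kept their direction and call under it.

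**Figure D1:**
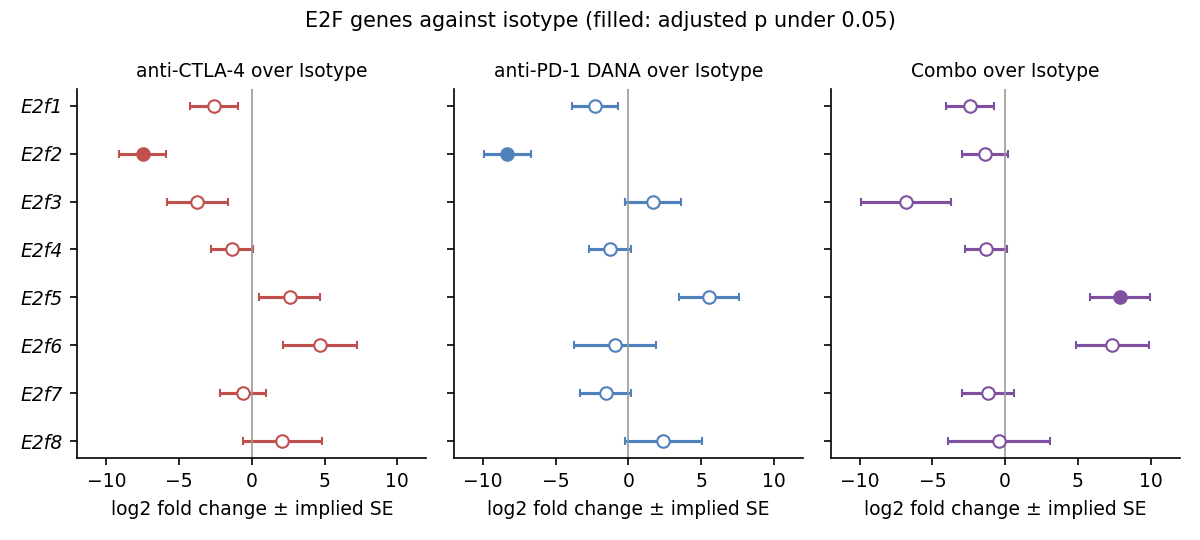
Log2 fold changes of the 8 E2F genes over isotype (x axis) with the implied SE as bars, in 1 panel per treatment; filled points have an adjusted p under 0.05 in the authors' deposited table. E2f2 is filled at -7.50 and -8.33 in the panels of the single antibodies, and E2f5 at 7.89 in the panel of the combination.

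Each deposited table gives the larger of the 2 group means in RPKM (reads scaled to exon length and to library size), a unit comparable between genes because it is per length. A mean that stands in more than 1 table is that of the shared isotype arm, and a mean above another table's larger mean is that of the treated arm. The lowest means of E2f5 and E2f6 stood in 1 table each and were given to the arm whose libraries fitted them with whole reads. The smaller mean is not given, so such an arm has an upper bound only. Low RPKM means are sums of whole reads over exon length and library size, which returned the size of each library and, for scarce genes, the reads of each library. Library sizes ran from 14729713 to 29583827 reads for anti-CTLA-4, 24233466 to 31943900 for anti-PD-1 DANA, 24594651 to 42556869 for Combo and 23973359 to 32867235 for Isotype. Libraries are named here by depth (shallowest, middle, deepest) because they could not be tied to replicate numbers.

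Of the activators, E2f2 was the one called. E2f2, on chromosome 4 at 136172394 to 136196057 (GRCm38, plus strand), averaged at most 7.78 RPKM in each treated arm, against 7.78 RPKM in Isotype. Its log2 fold change was -7.50 ± 1.6 after anti-CTLA-4 (adjusted p = 0.00236), -8.33 ± 1.61 after anti-PD-1 DANA (adjusted p = 0.00054) and -1.37 ± 1.57 in the combination (adjusted p = 1.0), all from the authors' deposited table. By these fitted values the transcript was far lower in the pools of both single antibodies, while the difference in the pool of the combination was smaller than its error. The isotype libraries were themselves uneven. Exactly 2 sets of whole reads fitted the isotype mean, where chance would give 0.184, so the set could not be settled. The shallowest, middle and deepest libraries held 1769, 981 and 5 reads in the first set and 1814, 310 and 843 reads in the other, with an SD of 7.55 or 6.82 RPKM. In either set the shallowest isotype library was highest, at 15.1 or 15.5 RPKM, and without it the isotype mean was 4.11 or 3.92 RPKM. After Bonferroni adjustment the fall in anti-CTLA-4 was no longer called (adjusted p = 0.128), while that in anti-PD-1 DANA still was (adjusted p = 0.0108), both as the authors' deposited table gives them.

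E2f1, on chromosome 2 at 154559407 to 154569892 (minus strand), was barely detected in any arm. It averaged at most 0.0389 RPKM in each treated arm, against 0.0389 RPKM in Isotype, where the libraries held 1, 8 and 0 reads from shallowest to deepest. Its log2 fold changes in the authors' deposited table were -2.57 ± 1.65 after anti-CTLA-4, -2.31 ± 1.56 after anti-PD-1 DANA and -2.40 ± 1.66 in the combination (adjusted p = 1.0 each). Without its middle library the isotype mean was 0.00661 RPKM. E2f1 was therefore at the edge of detection in libraries of 14729713 reads or more, and no change could be shown at this depth.

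E2f3, on chromosome 13 at 29906575 to 29985668 (minus strand), was the activator with the widest range of fold changes. The anti-PD-1 DANA libraries held 42, 1 and 145 reads from shallowest to deepest, or 0.362, 0.00779 and 0.947 RPKM, against 0, 30 and 1 reads, or 0, 0.255 and 0.00635 RPKM, in the Isotype libraries. The arms overlapped, since 1 anti-PD-1 DANA library lay below the highest isotype library. The means were 0.439 ± 0.474 RPKM in anti-PD-1 DANA and 0.0872 ± 0.146 RPKM in Isotype (SD, n = 3 each), and the anti-CTLA-4 and Combo means were at most 0.0872 RPKM. In the authors' deposited table the log2 fold change was 1.68 ± 1.93 after anti-PD-1 DANA (adjusted p = 1.0), -3.74 ± 2.09 after anti-CTLA-4 (adjusted p = 0.766) and -6.82 ± 3.10 in the combination (adjusted p = 0.388). None passed. Without its deepest library the anti-PD-1 DANA mean was 0.185 RPKM, and without its middle library the Isotype mean was 0.00317 RPKM.

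The members that work with pocket proteins in resting cells had fold changes of opposite sign in each comparison, and they were not tested against each other. E2f4, on chromosome 8 at 105297663 to 105305370 (plus strand), was the most abundant member in isotype, with at most 10.3 RPKM in each treated arm, against 10.3 ± 11.2 RPKM in Isotype (SD, n = 3). Its isotype libraries held 35, 1358 and 624 reads from shallowest to deepest, or 0.595, 22.6 and 7.74 RPKM. The log2 fold changes in the authors' deposited table were close to each other, -1.37 ± 1.45 after anti-CTLA-4, -1.28 ± 1.45 after anti-PD-1 DANA and -1.30 ± 1.45 in the combination (adjusted p = 1.0 each). These were smaller than their own errors. On the scale of library size they were -0.42, -0.46 and -1.19 in the same order. Without its middle library the isotype mean was 4.17 RPKM, and without its shallowest it was 15.2 RPKM.

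E2f5, on chromosome 3 at 14578641 to 14606309 (plus strand), had its highest mean in the combination. The anti-CTLA-4 libraries held 15, 0 and 12 reads from shallowest to deepest, or 0.571, 0 and 0.228 RPKM. The anti-PD-1 DANA libraries held 136, 112 and 10 reads, or 3.15, 2.35 and 0.176 RPKM. The Combo libraries held 3, 442 and 695 reads, or 0.0684, 7.75 and 9.16 RPKM. In each arm at least 1 library was far below the other libraries, and the shallowest Combo library lay below every anti-PD-1 DANA library. The means were 0.266 ± 0.288 RPKM in anti-CTLA-4, 1.89 ± 1.54 RPKM in anti-PD-1 DANA and 5.66 ± 4.90 RPKM in Combo (SD, n = 3 each), against at most 0.266 RPKM in Isotype. In the authors' deposited table the log2 fold change was 2.60 ± 2.07 after anti-CTLA-4 (adjusted p = 1.0), 5.56 ± 2.06 after anti-PD-1 DANA (adjusted p = 0.173) and 7.89 ± 2.06 in the combination (adjusted p = 0.0107). Leaving out 1 Combo library at a time gave means from 3.91 to 8.46 RPKM, each above the anti-PD-1 DANA and anti-CTLA-4 means. The anti-CTLA-4 mean was 0.114 RPKM without its shallowest library and 0.4 RPKM without its middle library, and the anti-PD-1 DANA mean was 1.26 to 2.75 RPKM with 1 library left out. The call in the combination was lost under Bonferroni adjustment (adjusted p = 1) in the authors' deposited table.

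**Figure D2:**
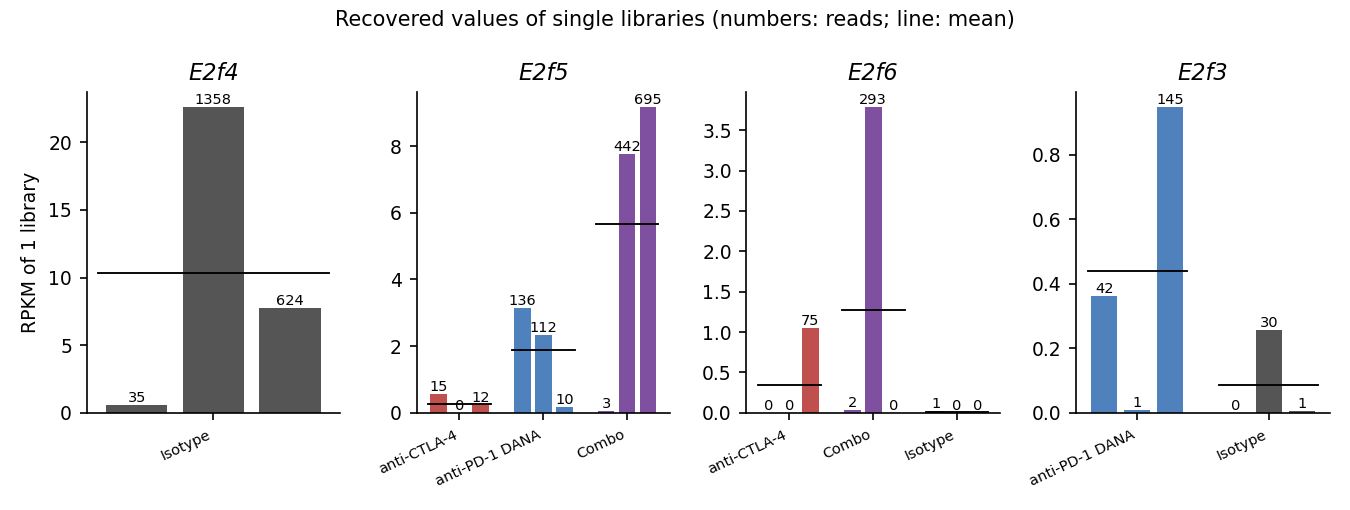
RPKM of single libraries (bars, shallowest to deepest within an arm) where whole reads were recovered for E2f4, E2f5, E2f6 and E2f3, with the reads printed above each bar and the mean of the arm as a line; arms whose mean is not known are not drawn. E2f5 reads came from 2 of the 3 Combo libraries (442 and 695 against 3), and E2f6 reads almost wholly from 1 library in anti-CTLA-4 and in Combo. For E2f3 and E2f6 the printed reads are the smallest that fitted.

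E2f6, the Polycomb-linked repressor on chromosome 12 at 16810965 to 16826743 (plus strand), rested on single libraries. All reads of the anti-CTLA-4 arm came from its deepest library, 99.1% of the summed Combo level came from the middle library (3.78 RPKM), and the Isotype reads came from the shallowest library (0.0172 RPKM). The smallest numbers of reads that fitted were 75 in anti-CTLA-4, 295 in Combo and 1 in Isotype, or the same whole multiple of each. The means were 0.349 ± 0.605 RPKM in anti-CTLA-4 and 1.27 ± 2.17 RPKM in Combo, against 0.00574 ± 0.00995 RPKM in Isotype (SD, n = 3 each), and anti-PD-1 DANA averaged at most 0.00574 RPKM. In the authors' deposited table the log2 fold change was 4.71 ± 2.53 after anti-CTLA-4 (adjusted p = 0.698), -0.95 ± 2.82 after anti-PD-1 DANA (adjusted p = 1.0) and 7.37 ± 2.53 in the combination (adjusted p = 0.0943). The last would be called if the adjustment of the authors' p-values covered tested genes only (adjusted p = 0.0345), and without the middle library the Combo mean was 0.0168 RPKM.

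The atypical repressors were close to absent. E2f7, on chromosome 10 at 110745439 to 110787384 (plus strand), had 0, 1 and 1 reads in the anti-CTLA-4 libraries, against 0, 0 and 2 reads in the Isotype libraries, from shallowest to deepest. E2f8, on chromosome 7 at 48866429 to 48881596 (minus strand), had 0, 2 and 0 reads in the anti-CTLA-4 libraries and 2, 0 and 1 reads in the anti-PD-1 DANA libraries. No read of E2f8 was found in Combo, which allows a level of up to 0.00556 RPKM (3 reads over the arm), against no read in Isotype, which allows up to 0.00677 RPKM. These limits cover counting error only. The log2 fold change of E2f7 in the authors' deposited table was -0.59 ± 1.59 after anti-CTLA-4 (0.36 on the scale of library size), -1.56 ± 1.75 after anti-PD-1 DANA and -1.19 ± 1.78 in the combination. That of E2f8 was 2.10 ± 2.71, 2.39 ± 2.65 and -0.42 ± 3.50 in the same order. Neither gene was called in any comparison, and neither gene's change can be judged from so few reads.

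**Figure D3:**
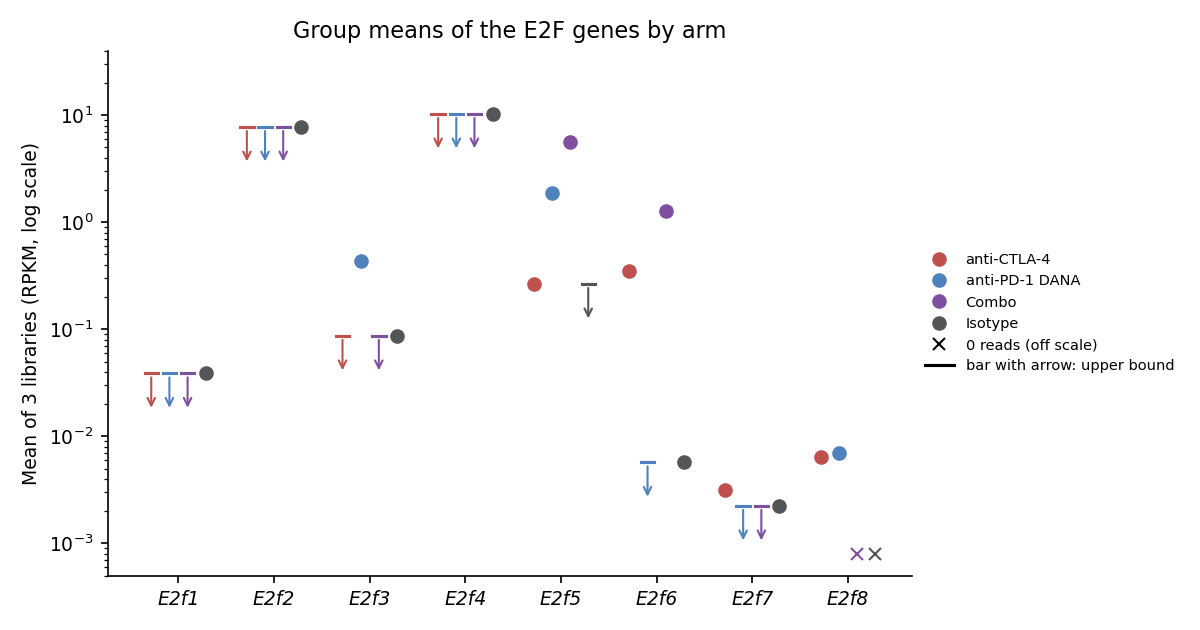
Mean RPKM of the 8 E2F genes in each arm on a log axis; points are known means of 3 libraries, bars with an arrow are upper bounds where only the other arm's mean was given, and crosses mark arms with 0 reads, drawn below the scale. E2f2 and E2f4 are highest in Isotype (7.78 and 10.3 RPKM), E2f5 in Combo (5.66 RPKM), and E2f7 and E2f8 stay under 0.01 RPKM.

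In Isotype the known means ran from E2f4 (10.3 RPKM) and E2f2 (7.78 RPKM) through E2f3 (0.0872 RPKM) and E2f1 (0.0389 RPKM) to E2f6 (0.00574 RPKM), E2f7 (0.00225 RPKM) and E2f8 (0 RPKM), with E2f5 at or below 0.266 RPKM. Neighbours in this order overlapped in their isotype libraries, except E2f2 and E2f3 under the second set of E2f2 reads, where the lowest E2f2 library (2.59 RPKM) lay above the highest E2f3 library (0.255 RPKM). In a sorted bulk pool, fewer expressing cells and less RNA per cell cannot be told apart.

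Treatments were set against each other by subtracting log2 fold changes, which removes the isotype libraries. Over the 8 members and 3 pairs of treatments there were 24 differences, with p-values adjusted over all 48709 listed genes. The differences are given as a description, since they were known when the family was chosen. The mean of the 2 errors was used for E2f2, E2f4 and E2f5. For E2f1, E2f3, E2f6, E2f7 and E2f8 their sum was used, which is an upper bound. With that bound even the E2f2 differences below did not pass, so the lack of a call for these members says little. The shares of tested genes below mix both kinds of error, with the mean used for 57.4% of tested genes. For E2f2, computed from the authors' fold changes, Combo minus anti-PD-1 DANA was 6.96 ± 1.59 (adjusted p = 0.0135) and Combo minus anti-CTLA-4 was 6.13 ± 1.58 (adjusted p = 0.0397). For Combo minus anti-PD-1 DANA 0.443% of tested genes were called, 0.191% higher and 0.252% lower. For Combo minus anti-CTLA-4 0.886% were called, 0.421% higher and 0.465% lower, and for anti-CTLA-4 minus anti-PD-1 DANA none (0%). With the upper bound of the error from the authors' p-values, neither E2f2 difference passed (adjusted p = 1 each), and on the scale of library size the difference from anti-CTLA-4 was 5.29 and did not pass (adjusted p = 0.1). E2f2 did not differ detectably between the single antibodies, where anti-CTLA-4 minus anti-PD-1 DANA was 0.83 ± 1.6. For E2f5, again from the authors' fold changes, Combo minus anti-CTLA-4 was 5.29 ± 2.07 (adjusted p = 0.618) and Combo minus anti-PD-1 DANA was 2.33 ± 2.06 (adjusted p = 1), and the other members' differences did not pass either (adjusted p = 1 each).

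Windows around annotated starts of the members were read to show which carry a sequence that E2F proteins bind. RefSeq windows (GRCm38.p6) of 250 bases before to 50 bases after a gene's start were found for E2f1, E2f2, E2f3, E2f6, E2f7 and E2f8, with 2 starts each for E2f2 and E2f3. The motifs TTTCCCGC, TTTGGCGC, TTTCGCGC and TTTGCCGC, searched on both strands, were in 3 of these 8 windows, against 2.26% of 32817 windows in all and 4.29% of those with at least 60% GC. The windows with a match are shown 5′ to 3′ on the gene's strand, with the match in capitals, because E2f2 is the member called lower after both single antibodies and E2f3 and E2f7 are the other members with a match. They lie at chr4:136172024-136172323 (plus strand), chr13:29986014-29986313 (minus strand) and chr10:110745189-110745488 (plus strand). Their GC shares are 54.7% for E2f2, 55.3% for E2f3 and 75.3% for E2f7. The share among windows with at least 60% GC is therefore not a like comparison for E2f2 and E2f3.
E2f2, first start: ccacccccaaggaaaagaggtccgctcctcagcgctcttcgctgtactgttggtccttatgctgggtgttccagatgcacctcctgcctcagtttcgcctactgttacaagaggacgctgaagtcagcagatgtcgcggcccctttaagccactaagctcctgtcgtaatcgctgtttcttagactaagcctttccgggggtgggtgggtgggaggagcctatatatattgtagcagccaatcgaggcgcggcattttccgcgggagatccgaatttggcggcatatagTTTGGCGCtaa
E2f3, first start: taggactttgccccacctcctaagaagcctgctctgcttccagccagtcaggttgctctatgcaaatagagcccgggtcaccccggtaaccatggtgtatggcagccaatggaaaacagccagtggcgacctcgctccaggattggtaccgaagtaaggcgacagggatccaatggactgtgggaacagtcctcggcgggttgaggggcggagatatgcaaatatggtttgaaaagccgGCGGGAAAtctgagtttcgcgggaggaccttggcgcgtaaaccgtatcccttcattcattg
E2f7: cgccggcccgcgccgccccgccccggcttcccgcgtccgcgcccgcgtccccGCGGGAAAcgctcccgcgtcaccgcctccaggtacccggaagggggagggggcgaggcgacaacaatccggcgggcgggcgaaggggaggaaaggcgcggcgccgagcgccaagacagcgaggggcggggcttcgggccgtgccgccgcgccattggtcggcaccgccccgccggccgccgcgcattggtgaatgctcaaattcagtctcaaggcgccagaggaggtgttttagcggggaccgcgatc
The match in E2f2 is TTTGGCGC, and that in E2f3 and in E2f7 is GCGGGAAA, the reverse complement of TTTCCCGC. The match in E2f2 begins 39 bases past the start, that in E2f3 11 bases before it and that in E2f7 198 bases before it. RefSeq starts need not be the gene boundaries in the deposited tables. The first windows of E2f2 and E2f3 lie wholly upstream of the gene boundaries given above, so these distances are from the RefSeq starts only. The window of E2f1, at chr2:154569377-154569676 (minus strand), lies wholly inside the gene boundaries given above, as do the second windows of E2f2 and E2f3. The sequence upstream of the E2f1 boundary was therefore not searched, and the lack of a match for E2f1 does not describe its promoter. A match is a description of the letters and not a bound site. E2f2, E2f3 and E2f7 had different fold changes, as given above.

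Among the genes whose 3 fold changes lay nearest to those of E2f2 by Euclidean distance, of 4215 tested genes whose larger mean lay within a factor of 2, were Glyctk, glycerate kinase (distance 1.56), and Cd40, a costimulatory receptor of antigen-presenting cells (1.57). Cd40 stood at -8.26 after anti-CTLA-4, -8.99 after anti-PD-1 DANA and -2.58 in the combination in the authors' deposited table. Nearest to E2f5, among 4186 genes, were Lmbr1 (0.346), Smarcd1, a subunit of SWI/SNF chromatin remodelling complexes (0.511), and Tmem221 (0.62). Distances are in log2 units over 3 comparisons that share isotype.

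The genes that E2F proteins work with and act on were taken as 10 lists of 114 genes, of which 109 were tested. After anti-CTLA-4 5 of 109 were called (4.59%), 2 higher and 3 lower, where 4.23% of all tested genes were called. After anti-PD-1 DANA 6 were called (5.50%), 4 higher and 2 lower, where 3.75% of all tested genes were called. In the combination 10 were called (9.17%), 7 higher and 3 lower, where 7.53% of all tested genes were called. These shares lie near those of all genes and say nothing particular of the lists. On the scale of library size the split became 8 higher and 3 lower after anti-CTLA-4 and 11 higher and 2 lower after anti-PD-1 DANA. These are 10.1% and 11.9% of the tested list genes, where the same scaling called 7.67% and 6.82% of all tested genes. This scaling adds 0.94 or 0.82 to every log2 fold change, so a shift towards higher calls is built in for all genes. How all tested genes split by direction under it is not given here, so the split of the lists cannot be read as a rise.

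Of the DP dimer partners, Tfdp1 was called lower in the combination, where the authors' deposited table gave -7.31 ± 1.88 (adjusted p = 0.00918), and was not called at -0.78 ± 1.84 after anti-CTLA-4 (0.17 on the scale of library size) and -2.81 ± 1.84 after anti-PD-1 DANA. Its reads were split in the same uneven way in 2 arms. The anti-CTLA-4 libraries held 200, 1041 and 1 reads from shallowest to deepest, against 329, 1221 and 3 reads in the Isotype libraries. Tfdp2 was not called, and the authors' deposited table gave -5.28 ± 2.13 after anti-CTLA-4, -2.72 ± 2.12 after anti-PD-1 DANA and -1.10 ± 2.12 in the combination. Of the pocket proteins none was called in any comparison. Rb1, the retinoblastoma gene, averaged 1.89 ± 1.88 RPKM in anti-CTLA-4 and 1.78 ± 1.03 RPKM in anti-PD-1 DANA, against 1.73 ± 2.25 RPKM in Isotype (SD, n = 3 each), differences far inside the spread between libraries. Rbl1, which encodes p107, had its largest log2 change after anti-PD-1 DANA at -2.23 ± 1.52, and Rbl2, which encodes p130, in the combination at -3.11 ± 1.28, with an adjusted p of 0.256 in the authors' deposited table.

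Of 9 partners of E2F6 in its Polycomb complex, Rybp, which stimulates ubiquitination of histone H2A, was the called member and was lower in all 3 comparisons. It averaged 13.9 RPKM in Isotype, and the authors' deposited table gave -6.57 ± 1.6 after anti-CTLA-4 (adjusted p = 0.00957), -8.78 ± 1.63 after anti-PD-1 DANA (adjusted p = 0.000363) and -6.28 ± 1.6 in the combination (adjusted p = 0.0086). In the GRCm38 coordinates of the tables, Tfdp1 lies on chromosome 8 at 13338751 to 13378448 and Rybp on chromosome 6 at 100228565 to 100287485. Of 9 G1 cyclins, kinases and their activator, Cdc25a, a phosphatase that activates cyclin-dependent kinases, was called higher in the combination, which the authors' deposited table put at 7.78 ± 1.95 (adjusted p = 0.00705). Of 6 tested inhibitors of cyclin-dependent kinases, Cdkn2b, which encodes p15, was called higher in the combination, which the authors' deposited table put at 7.95 ± 2.12 (adjusted p = 0.0134). No member was called among 7 genes of the MuvB complex with B-Myb and FoxM1, 4 regulators of E2F protein turnover and 5 tested apoptotic targets. Among all tested genes 1.49%, 1.32% and 3.59% were called lower after anti-CTLA-4, after anti-PD-1 DANA and in the combination. Called higher were 2.74%, 2.43% and 3.94% in the same order.

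The called members of the G1/S list lay on both sides of isotype. Of 42 tested members, 1 was called higher and 2 lower after anti-CTLA-4, 3 higher and 1 lower after anti-PD-1 DANA, and 3 higher and 1 lower in the combination, where 4.23%, 3.75% and 7.53% of all tested genes were called. Cdc45, a subunit of the replicative helicase, lies on chromosome 16 at 18780447 to 18811987, averaged 24.1 RPKM in Isotype and was lower in all 3 comparisons. The authors' deposited table gave it -8.78 ± 1.73 after anti-CTLA-4 (adjusted p = 0.00141), -9.44 ± 1.74 after anti-PD-1 DANA (adjusted p = 0.000363) and -8.70 ± 1.73 in the combination (adjusted p = 0.000453). Dut, which removes dUTP, averaged 3.46 RPKM in anti-CTLA-4, 14.2 RPKM in anti-PD-1 DANA and 10.4 RPKM in Combo, and the authors' deposited table called it higher in anti-PD-1 DANA (7.09 ± 1.62, adjusted p = 0.00558) and Combo (7.31 ± 1.62, adjusted p = 0.00189). In the same table Rrm1, a subunit of ribonucleotide reductase, was called higher after anti-PD-1 DANA (6.89 ± 1.74), Pole, a replicative polymerase, after anti-CTLA-4 (8.26 ± 2.19), and Chaf1a, a histone chaperone at the replication fork, in the combination (7.02 ± 1.72). Uhrf1, which keeps DNA methylation through replication, had 404, 138 and 76 reads in the anti-PD-1 DANA libraries and 20, 8 and 1425 reads in the Combo libraries, against 3, 2 and 2 reads in the Isotype libraries. It was called by the authors' table in the combination (6.86 ± 1.92, adjusted p = 0.02), where 1 library gave 96.9% of the level and the mean without it was 0.125 RPKM. It was not called by the authors' table after anti-PD-1 DANA (5.62 ± 1.92, adjusted p = 0.118). In both arms every library lay above every isotype library.

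Of 22 tested mitotic genes of the G2/M list, 1 was called higher after anti-CTLA-4 (Bub1b, a spindle checkpoint kinase), 1 after anti-PD-1 DANA (Kif23, a kinesin of cytokinesis) and 2 in the combination (Mki67, the proliferation marker Ki-67, and Birc5, survivin), and none was called lower. Among all tested genes 2.74%, 2.43% and 3.94% were called higher, and 12, 12 and 14 of the 22 members had a fold change above 0. Bub1b had 1, 0 and 926 reads in the anti-CTLA-4 libraries, against 0, 1 and 0 reads in the Isotype libraries, so its fold change of 8.43 ± 2.5 in the authors' deposited table (adjusted p = 0.0496) rested on the deepest library. Mki67 averaged 0.193 RPKM in anti-CTLA-4, 0.166 RPKM in anti-PD-1 DANA and 1.33 RPKM in Combo, and the authors' deposited table called it in the combination at 9.54 ± 2.3 (adjusted p = 0.00483). Of the anti-CTLA-4 level of Mki67 89.6% came from 1 library (0.0303 RPKM without it), and of the anti-PD-1 DANA level 93.0% (0.0175 RPKM without it). Birc5 was called there by the authors' table at 5.90 ± 1.81 (adjusted p = 0.0435). The list medians were 0.52 after anti-CTLA-4, 0.99 after anti-PD-1 DANA and 2.48 in the combination, against -0.62, -0.45 and -0.42 over all tested genes, and those of the G1/S list were -0.08, -0.05 and 0.58. In the combination the median over all tested genes is also the commonest value listed for genes with no read in either arm. There it is a poor yardstick for the lists. The medians after the single antibodies also include genes with no read in either arm. Such genes are listed between -0.69 and -0.67 after anti-CTLA-4 and between -0.60 and -0.59 after anti-PD-1 DANA. Those medians are weak yardsticks too, and the counts above 0 have no share over all tested genes beside them.

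**Figure D4:**
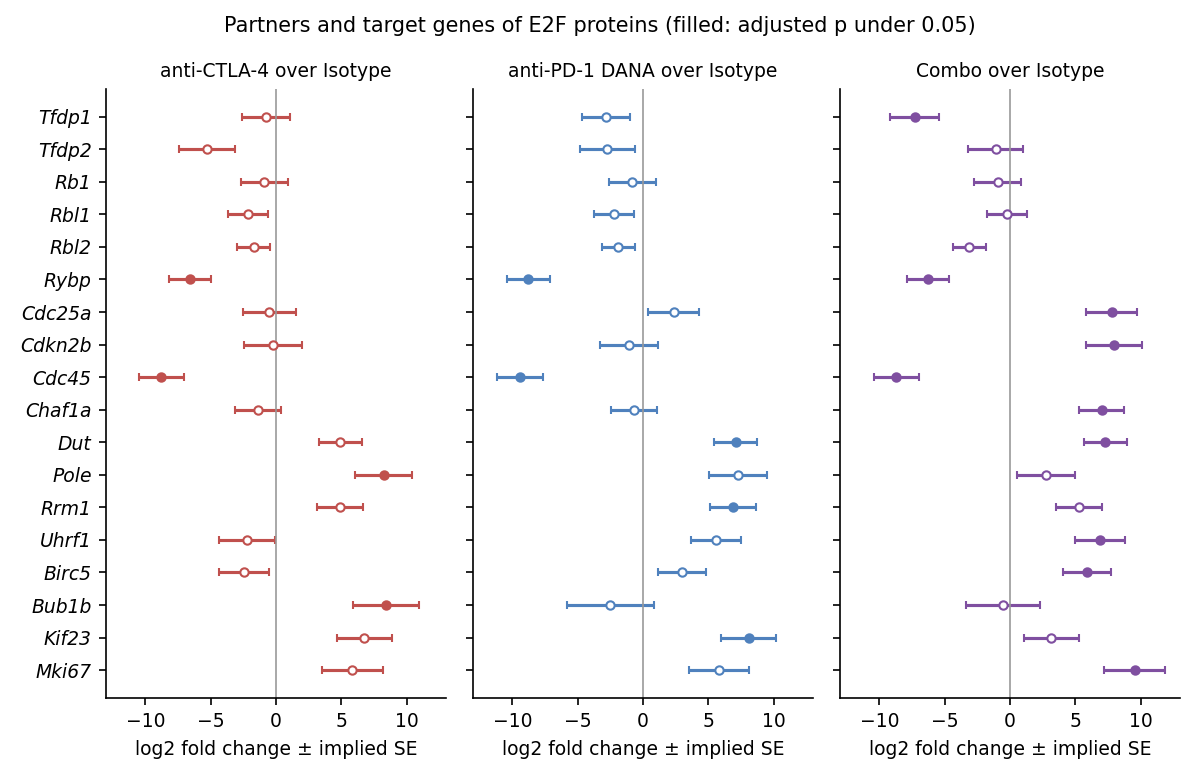
Log2 fold changes over isotype (x axis, with the implied SE as bars) of the dimer partners, the pocket proteins and the called genes that the naming rule took from the other lists; filled points have an adjusted p under 0.05 in the authors' deposited table. Rybp and Cdc45 are filled on the left in all 3 panels, and Tfdp1 (-7.31) on the left in the panel of the combination.

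Recovered reads of these partners and targets were as uneven as those of the members. Of 17 group means that could be resolved, from 8 of the 18 named genes, 8 drew at least 80% of their level from 1 library, and the median share of the top library was 78.3%. The share of Bub1b in Isotype was fixed in advance, since that arm held 1 read. Few reads also lay behind the means of Cdc25a in anti-CTLA-4 (4 reads) and Uhrf1 in Isotype (7 reads). Markers of the sorted cells were present, with Cd8a at larger means of 81.8 to 147 RPKM and Cd3e at 133 to 189.6 RPKM over the 3 tables. Genes listed as markers of other cells were present too. The larger means of the B cell genes were 134 to 242 RPKM for Ighm, 26.3 to 75.6 RPKM for Cd79a and 0.299 to 1.28 RPKM for Pax5. Those of the myeloid gene Lyz2 were 49.1 to 92.1 RPKM. Of 10 B cell markers 4 were called higher and none lower after anti-CTLA-4, where E2f2 was called lower. After anti-PD-1 DANA, where E2f2 was called lower too, none of 10 was called, and in the combination 1 was higher and 1 lower. Among all tested genes 2.74%, 2.43% and 3.94% were called higher after anti-CTLA-4, after anti-PD-1 DANA and in the combination. Called lower were 1.49%, 1.32% and 3.59% in the same order. Of the myeloid markers Cd14 and Adgre1 were at 0 in all arms and 5 were tested, of which 2 had a fold change above 0 in each comparison. After anti-CTLA-4 2 of 5 were called lower (C1qa and Mpeg1), while C1qb stood at 9.92 without a call. After anti-PD-1 DANA 1 was called higher (Csf1r), while C1qa stood at -1.72 and Mpeg1 at -3.20, and in the combination 1 was called lower (Lyz2), while Csf1r stood at 4.04. Of 4 germinal centre B cell and plasmablast markers 1 was called, Xbp1, lower in the combination. Of the CD4 and regulatory T cell markers Cd4 was called higher after anti-CTLA-4 and Foxp3 was not called. No marker of dendritic, natural killer or erythroid cells was called in any comparison, but only 4, 1 and 2 were tested. In the authors' table Siglech (dendritic) stood at -4.61 after anti-CTLA-4, -5.54 after anti-PD-1 DANA and -2.44 in the combination, each ± 1.70. Of the 4 dendritic markers 2, 0 and 2 had a fold change above 0 in that order. The natural killer marker Klrb1c stood at 1.83 ± 2.44, 6.24 ± 2.41 and -0.22 ± 2.56 in that order. So few genes cannot show that these cells were equal between pools. Of 8 genes listed for CD8 T cells 1 was called, Ptprc, lower after anti-CTLA-4. It encodes CD45, which is not particular to these cells. Summed marker levels per arm were not used here because the smaller means are not given, and the part of other cells in the E2F values was not tested.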

How the data were processed

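RNA was measured in 12 libraries (3 per arm, 0.25 ng of RNA, 21 cycles of amplification). Alignment and quantification used CLC Genomics Workbench, per the labels' protocols, and the genome build was GRCm38.p5, per the submitters' processing notes; its version, the annotation and the model behind the p-values are not given in the sources used. The authors deposited 1 comparison with isotype per treatment. The larger group mean is in RPKM, a unit read from the deposited values. The authors deposited a log2 fold change and, from it, a signed fold change (a score below 0 where treatment is lower). The p-value, false discovery rate and Bonferroni p-value deposited by the authors cover all 48709 listed genes, of which 17833 were tested.

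Since values per library are not in these tables, no count model was fitted. Standard errors were implied by dividing the size of each log2 fold change by the normal quantile of its p-value, as for a Wald test. Differences between treatments used the mean of the 2 errors where the 3 errors lay within 5% (10237 genes, 57.4% of those tested), otherwise their sum as an upper bound, with Benjamini-Hochberg adjustment over all listed genes. Library sizes came from at least 20 genes each at the level of 1 read, with exon lengths from GENCODE M21. Whole reads were accepted where 1 solution fitted and chance gave at most 0.05. Of 300 genes tried per arm, 81.3 to 88.7% were solved, and with lengths off by 1 base at most 0.333%. Exon lengths of E2f3 (4794) and E2f6 (2421) are the shortest that fitted their means, since the GENCODE lengths gave none. Whole multiples of these lengths fitted too. The recovery of reads from known library sizes and exon lengths was tested on simulated data. So was the difference between treatments, with equal errors in all arms and large added effects. The recovery of library sizes, the fitted exon lengths and the differences with summed errors were not tested in this way.

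The members and lists were chosen with earlier results of these data known. Named genes are all members, dimer partners and pocket proteins, the called genes of each list (at most 6, by adjusted p) and the 3 nearest genes to each called member. A gene that this rule names is not reported here. Python 3.11.15, numpy 2.4.6, pandas 2.3.3 and scipy 1.17.1 were used.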

Additional observations from a re-analysis of the deposited data

How the results depend on the processing

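The 48 fold changes and differences of the members were recomputed under 153 alternatives: 142 kept their direction and their side of the threshold, 5 fell below it, 1 passed it and 5 reversed. Only scaling by library size can change a value, and under it 42 kept both, 1 fell below the threshold and 5 reversed. The other alternatives repeat the value, so its direction was fixed in advance. Bonferroni adjustment and the upper bound of the error can only remove a call, and the minimum of 1 RPKM keeps the p-value. The reversals came with scaling by library size, which raises fold changes by 0.94 after anti-CTLA-4, 0.82 after anti-PD-1 DANA and 0.11 (Combo): E2f7 after anti-CTLA-4 (0.36), Combo minus anti-CTLA-4 for E2f1 (-0.67) and E2f4 (-0.77), Combo minus anti-PD-1 DANA for E2f7 (-0.33) and anti-CTLA-4 minus anti-PD-1 DANA for E2f4 (0.039); none was called. The count of 1 called member became 0 with Bonferroni adjustment after anti-CTLA-4 and in the combination, and 2 in the combination with adjustment over tested genes. Of the 1 member called for Combo minus anti-CTLA-4 and the 1 for Combo minus anti-PD-1 DANA, 0 remained with the upper bound of the error, and for anti-CTLA-4 also 0 on library size scaling. Called pathway genes numbered 12 after anti-CTLA-4, 14 after anti-PD-1 DANA and 19 in Combo with adjustment over tested genes (11.0%, 12.8% and 17.4%, against 9.06%, 8.95% and 12.5% of all tested genes), 1, 2 and 1 with Bonferroni adjustment, and 11 and 13 after anti-CTLA-4 and anti-PD-1 DANA on library size scaling. A minimum of 1 RPKM for the larger mean moved no count by over 1.5 times. Means of members without 1 library, an alternative chosen after seeing the data, are given beside the members with over 3 reads in an arm. No paired analysis was possible because the tables carry no value per replicate number, and fits without 1 library were not run for the same reason.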

Other observations

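Fold changes were also listed for tested genes with no read in either arm. There were 1920 such genes after anti-CTLA-4, 1631 after anti-PD-1 DANA and 2282 in the combination, and none of them was called. In the combination their log2 fold changes in the authors' deposited table lay between -0.43 and -0.42, E2f8 among them at -0.42, and the median of all tested genes was -0.42 too.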
